A study of Oryctolagus cuniculus with 134 samples.

Results

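The 7 genes described here are GCLC, GCLM, GSS, GSR, TXNRD1, NQO1 and SRXN1, which encode enzymes of glutathione synthesis and of thiol and quinone defense. They were matched by gene symbol, each to 1 row of the count tables, among 29587 annotated rabbit genes of which 14716 carried a symbol. The set was chosen by its CPM levels and fold changes between treatments and tissues in these same libraries, so its fold changes are given below as a description of the data and without p-values of their own. All 7 genes passed the filter on low counts in all 5 tissues.

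Glutathione is a small thiol that cells use to reduce peroxides and to conjugate reactive compounds. Its synthesis starts with glutamate-cysteine ligase, made of a catalytic subunit (GCLC) and a modifier subunit (GCLM), and ends with glutathione synthetase (GSS), while glutathione reductase (GSR) returns the oxidized form to the reduced one. Thioredoxin reductase (TXNRD1) and sulfiredoxin (SRXN1) do similar work for thioredoxin and for over-oxidized peroxiredoxins, NQO1 reduces quinones, and many of these genes are textbook targets of the transcription factor NRF2, which KEAP1 holds at a low level in unstressed cells.

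Total RNA of 5 tissues from 27 male New Zealand White rabbits was sequenced. The tissues were the proximal aortic ring (Ao), the aortic and mitral valves of the left heart (AoV, MV) and the pulmonary and tricuspid valves of the right heart (PV, TV). Rabbits entered the protocol at 12 weeks of age and followed it for 16 weeks. Controls (Ctrl, 7 libraries per tissue, 6 in MV) received chow without vitamin D2. The CHT group (6 libraries per tissue) received 0.3% cholesterol, the Lard group (7 per tissue) received 5% lard, and the IR/CHT group (7 per tissue) received the cholesterol diet and, after 8 weeks of it, cardiac irradiation of 24 Gy in 3 fractions of 8 Gy. The paper describes the irradiation, for its group given irradiation alone, as aimed at the thoracic aorta and aortic valve. It gives no separate dose for the other valves. Vitamin D2, at 25000 U per day for each 2.5 kg of body weight over 15 days, was given in all 3 fat-diet groups and not in Ctrl, so diet and vitamin D2 cannot be told apart in any comparison with Ctrl. The pieces were whole tissue, so more or fewer cells of a type cannot be told apart from more or less RNA per cell.

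Library totals ran from 13564979 to 50577676 counts (median 18235577), and the lowest count of any of the 7 genes in any library was 31, for SRXN1. Values are library-size normalized counts (CPM) scaled by the trimmed mean of M-values (TMM). The counts came in a table for each of 2 plates, with all Ao libraries on plate 2 and all CHT libraries of AoV and MV on plate 1. Smooth muscle markers (5 of 8 listed genes found by symbol) summed to 78998 to 110661 CPM in Ao Ctrl and to at most 1300.0 CPM in any valve Ctrl library. Over the 1000 most variable other genes, 11 libraries (0 of Ao, 3 of AoV, 5 of MV, 1 of PV and 2 of TV) correlated better with the mean of another tissue of the same treatment than with that of their own. Among them the PV and the TV library of 1 Lard rabbit were each nearest to the other valve (r = 0.973 against 0.880 and 0.949 against 0.730), and a TV Ctrl library was nearest to AoV (0.924 against 0.444). The comparisons between treatments in the valves and the differences between tissues were also fitted without these 11 libraries.

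A gene was called when the Benjamini-Hochberg adjusted p of edgeR's quasi-likelihood test, over all genes tested in that tissue, was under 0.05 and its fold change exceeded 1.5. In Ao, 2 of the 7 genes were called in CHT versus Ctrl, 1 in Lard versus Ctrl and 2 in IR/CHT versus Ctrl, all higher, where 19.4%, 2.61% and 34.3% of all 14777 genes were called. In AoV, 3 were called in CHT, 0 in Lard and 4 in IR/CHT versus Ctrl, where the shares of all 15408 genes were 11.9%, 0.234% and 42.8%, and 2 were called in IR/CHT versus CHT, where the share was 19.7%. All 6 AoV CHT libraries were on plate 1 and 4 of 7 AoV Ctrl libraries on plate 2, and the AoV CHT count of 3 was 1 (SRXN1) with plate as a covariate and 0 with plate 1 libraries alone. In MV no gene of the 7 was called in any of the 4 comparisons, where 5.62% (CHT), 0% (Lard), 17.7% (IR/CHT) and 0.189% (IR/CHT versus CHT) of 15322 genes were called. In PV and TV, 1 of the 7, GCLC, was called in CHT versus Ctrl, where 0.159% of 14450 genes (23 genes) and 0.163% of 14700 genes (24 genes) were called.

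No other comparison gave a call among the 7. The shares of all genes were 0.596% in Ao IR/CHT versus CHT, 0.706% in PV IR/CHT versus Ctrl, 0.0761% in PV IR/CHT versus CHT and 0.231% in TV IR/CHT versus Ctrl. They were 0% in PV Lard, TV Lard and TV IR/CHT versus CHT. In the comparisons with 0 calls over all genes, edgeR gave an unadjusted p under 0.05 for 253 genes (MV Lard), 360 (PV Lard), 1200 (TV Lard) and 1323 (TV IR/CHT versus CHT), and DESeq2 called 0, 0, 0 and 9 genes. The counts are not equally stable, since leaving out AoV Ctrl library L150 took the AoV CHT count from 3 to 0.

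**Figure D1:**
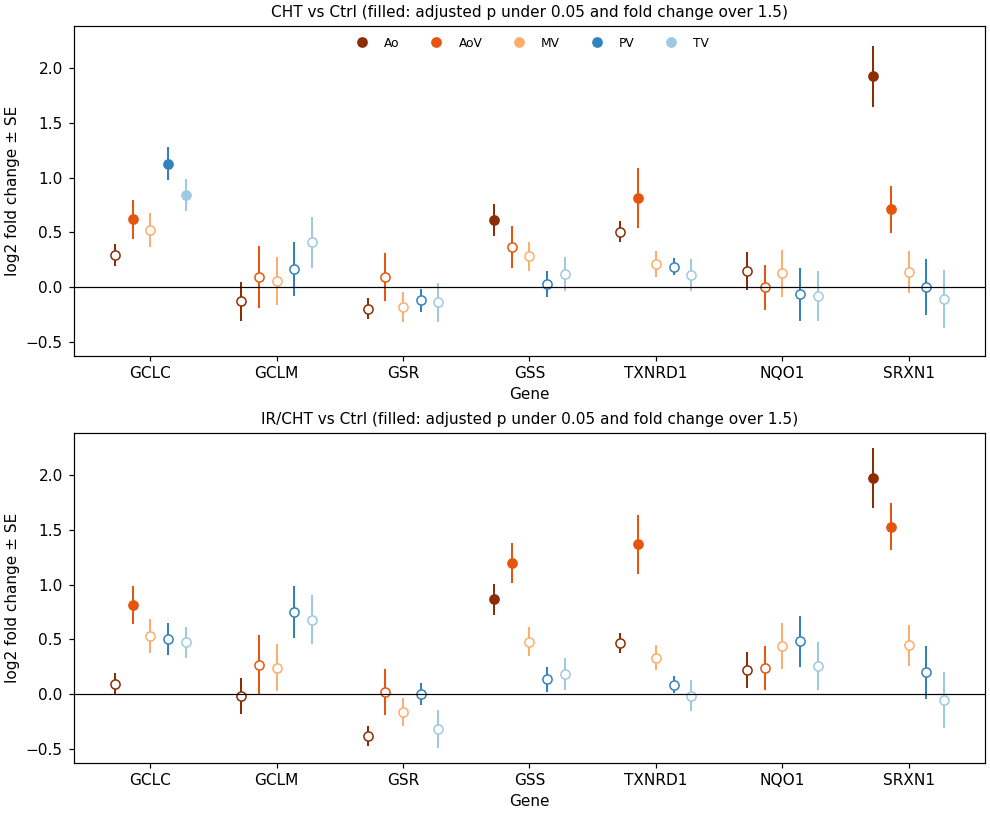
Log2 fold changes with standard errors of the 7 genes in CHT versus Ctrl (top) and IR/CHT versus Ctrl (bottom), with a color for each tissue and filled symbols for called values. GCLC is the only filled symbol in PV and TV, SRXN1 carries the largest value in Ao in both comparisons (1.93 and 1.98), and in AoV IR/CHT the largest values are those of SRXN1 (1.53), TXNRD1 (1.37) and GSS (1.20).

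In Ctrl the GCLC level was highest in Ao and lowest in AoV and MV. The Ao Ctrl libraries held 19.8 to 25.8 CPM (median 21.9), PV 14.2 to 21.6 (median 19.0), TV 14.2 to 21.9 (median 16.6), MV 14.5 to 16.3 (median 15.0) and AoV 8.17 to 17.8 (median 14.9). The Ao libraries lay above every AoV and MV library, and within rabbits Ao exceeded AoV in 7 of 7 and MV in 6 of 6, with a mean log2 ratio of 0.71 ± 0.47 (SD) and 0.57 ± 0.19. The share of all genes ordered in the same way between tissues, here or in CHT below, was not counted. The neighbors in this order, Ao and PV, PV and TV, TV and MV, and MV and AoV, overlapped, and AoV exceeded MV in 3 of 6 rabbits.

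In the right-sided valves the cholesterol diet went with the highest GCLC levels of the series. GCLC in PV was 14.2 to 21.6 CPM in Ctrl (18.1 ± 2.73, SD, n = 7) and 23.9 to 58.6 CPM in CHT (median 38.8, 39.8 ± 11.8, n = 6). Every CHT library exceeded every Ctrl library, an arrangement that 0.353% of all genes showed in PV. The log2 fold change was 1.13 (SE 0.15), and the CHT libraries were spread more widely than those of Ctrl.

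In TV the GCLC level was 17.2 ± 2.42 CPM in Ctrl (n = 7) and 31.2 ± 8.60 in CHT (n = 6, range 19.9 to 43.4, median 30.5). Of the 6 CHT libraries 5 lay above all Ctrl libraries, and the log2 fold change was 0.84 (SE 0.14). The same CHT rabbit had the lowest GCLC level in PV, TV and AoV, and another CHT rabbit had the highest in the same 3 valves.

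The GCLC fold change in PV differed in size between the plates. The plate 2 CHT libraries of PV included the rabbit with the lowest GCLC level in PV, TV and AoV. Plate and rabbit therefore cannot be told apart there. With plate 1 libraries alone (4 CHT, 5 Ctrl) the GCLC log2 fold change in PV was 1.38, and with plate 2 libraries alone (2 CHT, 2 Ctrl) it was 0.51 and was not called. In TV it was 0.77 on plate 1 and 0.98 on plate 2, neither of them called. Without the libraries nearest another tissue it was 1.13 in PV and 0.87 in TV, both called.

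In the left-sided valves GCLC was also higher in CHT than in Ctrl. GCLC in AoV ran from 8.17 to 17.8 CPM in Ctrl (14.1 ± 3.38, n = 7) and from 17.8 to 24.0 CPM in CHT (21.6 ± 2.27, n = 6), a log2 fold change of 0.62 (SE 0.18). In MV it ran from 14.5 to 16.3 CPM in Ctrl (15.3 ± 0.768, n = 6) and from 17.3 to 24.5 CPM in CHT (21.7 ± 3.23, n = 6), a log2 fold change of 0.52 (SE 0.16) that was under the fold limit. The CHT and Ctrl libraries did not overlap in either valve, although in AoV the lowest CHT and the highest Ctrl library were nearly equal at 17.8 CPM each. All CHT libraries above all Ctrl libraries was seen for 4.71% of genes in AoV and 2.92% in MV. The AoV call was lost in 5 of 20 alternative settings, over which the log2 fold change was 0.53 to 0.68.

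In Ao the GCLC level was 22.4 ± 2.27 CPM in Ctrl and 27.1 ± 4.17 in CHT, with overlapping libraries and a log2 fold change of 0.29 (SE 0.10). Within the 6 CHT rabbits, PV held more GCLC than Ao, AoV and MV in 6 of 6, and TV more than AoV and MV in 6 of 6. The mean log2 ratio of AoV to PV was -0.83 ± 0.34 (SD), against -0.39 ± 0.49 in the 7 Ctrl rabbits.

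With irradiation added to the cholesterol diet the GCLC levels of the 5 tissues lay close together. The IR/CHT means were 22.9 ± 2.59 CPM in Ao, 23.8 ± 3.93 in AoV, 21.9 ± 5.02 in MV, 25.6 ± 4.37 in PV and 24.0 ± 3.63 in TV (n = 7 each). In AoV the IR/CHT libraries (18.5 to 31.2 CPM, median 23.1) all exceeded Ctrl, as was seen for 12.2% of all genes there. The log2 fold change of 0.81 (SE 0.17) was called in 22 of 22 alternative settings.

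In PV and TV the IR/CHT mean lay between those of Ctrl and CHT, with libraries that overlapped both groups. Their log2 fold changes over Ctrl were 0.50 (SE 0.15) in PV and 0.47 (SE 0.14) in TV, with 5 of 7 IR/CHT libraries above all Ctrl libraries in each, and neither was called. Against CHT, PV IR/CHT was lower by a log2 difference of -0.63 (SE 0.15), which was not called, and 3 of 7 IR/CHT libraries lay below every CHT library. DESeq2 called this difference, and it was also called when 1 CHT library was left out (-0.75). In TV the same difference was -0.37 (SE 0.14).

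In Lard the GCLC levels overlapped those of Ctrl in every tissue. The Lard means were 23.2 ± 2.70 CPM in Ao, 15.2 ± 3.91 in AoV, 14.1 ± 3.23 in MV, 18.7 ± 2.66 in PV and 17.9 ± 2.09 in TV (n = 7 each). The log2 fold changes ran from -0.11 (SE 0.15, MV) to 0.10 (SE 0.17, AoV), with 0 calls in 5 tissues. In AoV the value was 0.45 with plate 1 libraries alone and -0.18 with plate 2 libraries alone, neither called.

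**Figure D2:**
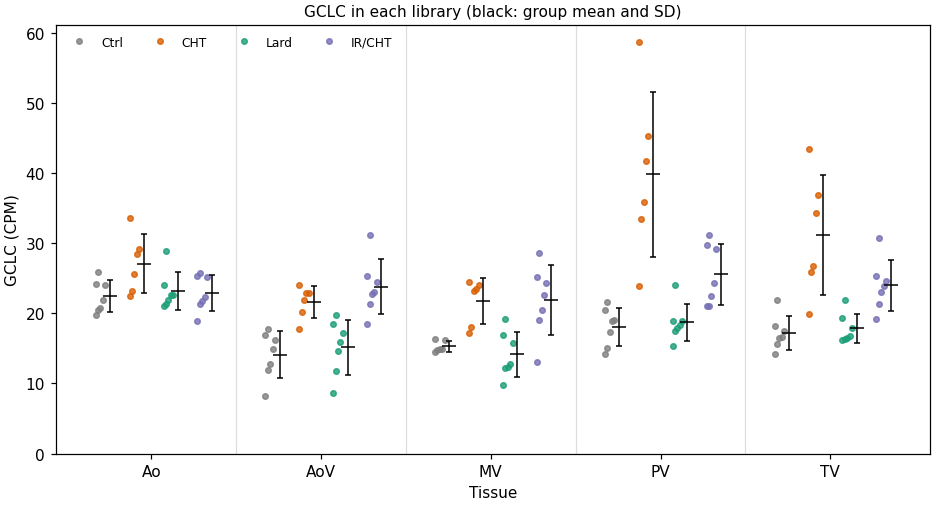
GCLC level in CPM in each library, by tissue and treatment, with the group mean and SD in black. The 6 PV CHT libraries sit between 23.9 and 58.6 CPM, all above the PV Ctrl libraries, and the IR/CHT groups of the 5 tissues have means between 21.9 and 25.6 CPM.

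GCLM, the modifier subunit that GCLC pairs with, followed a different order of groups. GCLM in PV was 4.12 to 7.45 CPM in Ctrl (median 4.82), 3.05 to 9.23 in CHT (median 5.86) and 5.59 to 12.7 in IR/CHT (median 9.05). Of the 7 IR/CHT libraries 6 lay above all Ctrl libraries, while CHT libraries spread to both sides of Ctrl. The log2 fold change was 0.17 (SE 0.25) in CHT and 0.75 (SE 0.24) in IR/CHT, and neither was called.

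GCLM in TV was 4.57 ± 1.79 CPM in Ctrl, 6.06 ± 1.73 in CHT and 7.30 ± 1.84 in IR/CHT, with log2 fold changes of 0.41 (SE 0.23) and 0.68 (SE 0.22). In Ao, AoV and MV every GCLM log2 fold change of CHT or IR/CHT over Ctrl lay between -0.13 and 0.27. GCLM was called in none of the 20 comparisons.

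GSS, which adds glycine to complete glutathione, was called higher in Ao and AoV. GSS in Ao was 15.6 to 23.8 CPM in Ctrl (median 18.0), 21.2 to 38.1 in CHT (median 25.9) and 28.4 to 39.7 in IR/CHT (median 32.8). The IR/CHT libraries all exceeded Ctrl, as was seen for 11.2% of all genes in Ao, and 4 of 6 CHT libraries did. The log2 fold changes were 0.61 (SE 0.15) in CHT and 0.87 (SE 0.14) in IR/CHT, both called, and the CHT call was lost when any of 4 libraries was left out (0.51 to 0.58).

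GSS in AoV was 19.1 to 40.4 CPM in Ctrl (median 26.4), 32.3 to 41.9 in CHT (median 35.1) and 38.7 to 85.8 in IR/CHT (median 55.6). The IR/CHT log2 fold change was 1.20 (SE 0.19) over Ctrl and 0.83 (SE 0.19) over CHT, both called, and the CHT value of 0.37 (SE 0.19) was not. In MV the GSS difference in IR/CHT was 0.48 (SE 0.13), with 6 of 7 libraries above all Ctrl and a fold under the limit. In PV and TV the GSS log2 fold changes ran from -0.09 to 0.18.

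GSR, the reductase that keeps glutathione reduced, went the other way in Ao. GSR in Ao was 32.9 to 44.2 CPM in Ctrl (median 38.6), 29.2 to 37.2 in CHT (median 31.5) and 23.0 to 31.1 in IR/CHT (median 27.8). Every IR/CHT library lay below every Ctrl library, an arrangement that 8.34% of all genes showed in Ao, and the log2 fold change of -0.39 (SE 0.09) was under the fold limit. In the 4 valves the GSR log2 fold changes over Ctrl lay between -0.32 (SE 0.17, TV IR/CHT) and 0.13 (SE 0.21, AoV Lard), and no GSR value was called.

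TXNRD1, the cytosolic thioredoxin reductase, was higher in both Ao and AoV. TXNRD1 in Ao was 48.0 to 73.8 CPM in Ctrl (median 68.1), 74.9 to 105 in CHT (median 91.1) and 80.3 to 91.7 in IR/CHT (median 81.8). All CHT and all IR/CHT libraries exceeded Ctrl, as was seen for 7.76% and 11.2% of all genes in Ao. The log2 fold changes of 0.51 (SE 0.10) and 0.46 (SE 0.09) were under the fold limit.

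TXNRD1 in AoV was 23.5 to 75.6 CPM in Ctrl (median 61.6), 45.9 to 107 in CHT (median 91.9) and 63.9 to 167.3 in IR/CHT (median 127). The Ctrl libraries were spread widely (48.4 ± 22.6, n = 7), with 3 libraries between 23.5 and 25.7 CPM and 4 between 61.6 and 75.6. The same 3 libraries were also the lowest of AoV Ctrl for GCLC and GSR and the highest for GSS. The TXNRD1 log2 fold change was 0.82 (SE 0.27) in CHT and 1.37 (SE 0.27) in IR/CHT, both called, and the CHT call was lost in 12 of 20 alternative settings. The IR/CHT call was lost with plate 2 libraries alone, where the log2 fold change was 1.22. In MV, 6 of 7 IR/CHT libraries exceeded all Ctrl libraries with a log2 fold change of 0.33 (SE 0.12), and in PV and TV the values ran from -0.01 to 0.19.

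SRXN1, which repairs over-oxidized peroxiredoxins, showed the largest fold changes of the 7 genes. SRXN1 in Ao was 1.93 to 4.98 CPM in Ctrl (median 2.69), 6.10 to 15.5 in CHT (median 11.7), 3.64 to 10.4 in Lard (median 6.07) and 6.78 to 17.9 in IR/CHT (median 11.8). All CHT and all IR/CHT libraries exceeded Ctrl, while 4 of 7 Lard libraries did. The log2 fold changes were 1.93 (SE 0.28), 1.04 (SE 0.27) and 1.98 (SE 0.27), all called, and the Lard call was lost in 8 of 18 alternative settings.

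In Ao, every library of the first group above all Ctrl libraries was found for 2 of the 7 genes in CHT (TXNRD1, SRXN1), where 7.76% of all genes showed it, and for 3 in IR/CHT (GSS, TXNRD1, SRXN1), where 11.2% did. SRXN1 in AoV was 2.85 to 7.63 CPM in Ctrl (median 5.24), 4.72 to 12.5 in CHT (median 8.54) and 10.3 to 19.6 in IR/CHT (median 15.1). The IR/CHT libraries lay above all Ctrl libraries, as for GCLC, an arrangement seen for 12.2% of genes in AoV. The log2 fold change was 0.71 (SE 0.22) in CHT and 1.53 (SE 0.21) in IR/CHT over Ctrl, and 0.82 (SE 0.22) in IR/CHT over CHT, all called. The call of IR/CHT over CHT was lost with plate 1 libraries alone (0.86), where all CHT libraries were.

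The SRXN1 call in AoV CHT was lost in 9 of 20 alternative settings, among them the one without the libraries nearest another tissue (0.68). In MV the SRXN1 log2 fold changes were 0.14 (SE 0.20) in CHT and 0.44 (SE 0.19) in IR/CHT. In PV and TV they ran from -0.11 to 0.21 over the 3 diets, with overlapping libraries throughout.

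**Figure D3:**
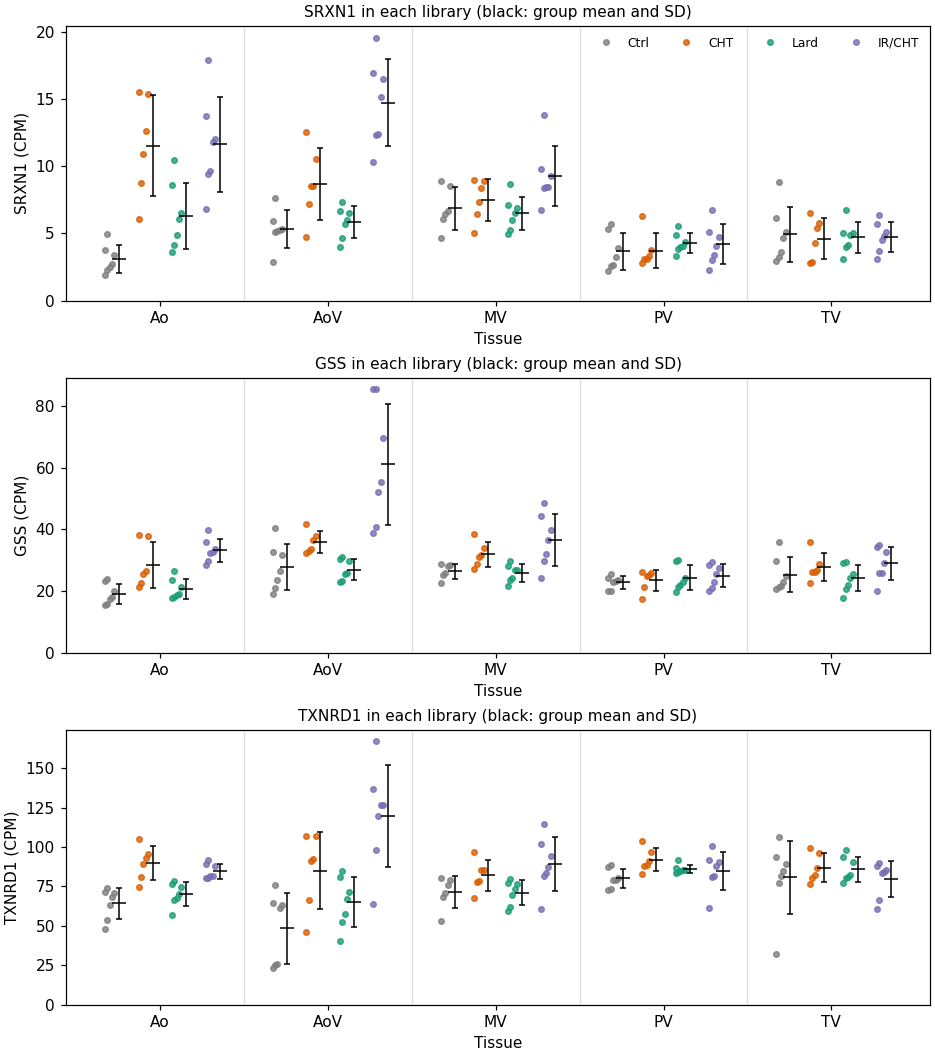
SRXN1, GSS and TXNRD1 levels in CPM in each library, by tissue and treatment, with the group mean and SD in black. The CHT and IR/CHT means stand above Ctrl in Ao and AoV, with AoV IR/CHT at 10.3 to 19.6 CPM for SRXN1, and the groups overlap in PV and TV.

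NQO1, a quinone reductase often read as an NRF2 target, was called in no comparison with all libraries included. Its group means ran from 13.5 CPM (MV Ctrl) to 27.3 CPM (Ao Lard). Its highest log2 fold changes over Ctrl were in IR/CHT, with 0.48 (SE 0.23) in PV and 0.44 (SE 0.21) in MV. Libraries of treated and Ctrl rabbits overlapped in each tissue, and in MV Ctrl 1 library (L278) at 22.5 CPM stood above the other 5 at 11.2 to 12.0. Without that library NQO1 was called in MV IR/CHT, with a log2 fold change of 0.67.

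**Figure D4:**
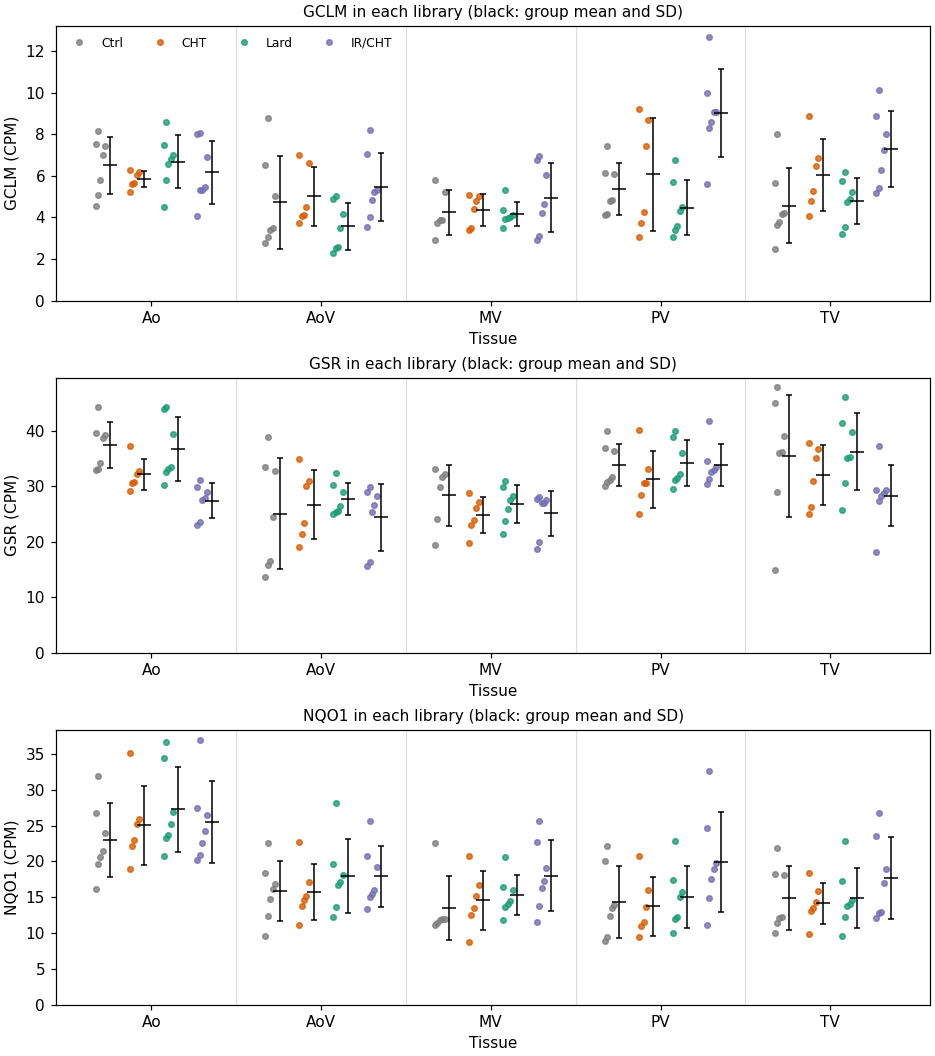
GCLM, GSR and NQO1 levels in CPM in each library, by tissue and treatment, with the group mean and SD in black. GSR in Ao IR/CHT (23.0 to 31.1 CPM) lies below Ao Ctrl (32.9 to 44.2 CPM), and most other groups overlap.

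The difference between tissues in the response to treatment was fitted across all genes for 3 pairs of tissues. AoV minus Ao, the response to CHT of SRXN1 was lower in AoV by a log2 difference of -1.28 (SE 0.35) and was called at an adjusted p under 0.05, as were 5.30% of all 16125 genes, a call that was lost without the filter on low counts. The response to IR/CHT was larger in AoV than in Ao for GCLC (0.59, SE 0.19) and TXNRD1 (0.79, SE 0.27), where 32.8% of all genes were called and the median of all genes was -0.29. With rabbit as a block, since the tissues compared came from the same rabbits, the same 3 differences were called (-1.28, SE 0.33, 0.61, SE 0.19 and 0.86, SE 0.26).

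PV minus AoV, the response to IR/CHT was smaller in PV for GSS (-1.0005, SE 0.23), TXNRD1 (-1.23, SE 0.27) and SRXN1 (-1.28, SE 0.32), where 40.2% of all genes were called and the median of all genes was 0.19. By the paper's description the irradiation was aimed at the aortic valve and not at PV. Exposure and tissue therefore cannot be told apart in the IR/CHT differences between AoV and PV. For the response to CHT none of the 7 was called in PV minus AoV, where 4.39% of genes were, and the GCLC difference was 0.52 (SE 0.23), or 0.46 (SE 0.21) with rabbit as a block. In TV minus MV none of the 7 was called for CHT (2.23% of genes) or IR/CHT (9.56% of genes), and the GCLC difference in the CHT response was 0.33 (SE 0.21), or 0.32 (SE 0.19) with rabbit as a block. The block added 1 call in TV minus MV, TXNRD1 in IR/CHT at -0.51 (SE 0.13) against -0.38 (SE 0.19) without it, where 18% of all genes were called with the block.

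Macrophage marker sums were higher in CHT and IR/CHT than in Ctrl in Ao, AoV and MV, and overlapped Ctrl in CHT of PV and TV. The sum of 15 macrophage markers (of 17 listed) had a median of 165.98 CPM in Ao Ctrl (79.7 to 325), 437 in Lard (234.6 to 845), 2253 in CHT (1278 to 4222) and 3431 in IR/CHT (1870 to 6792). In AoV it was 537 in Ctrl (227 to 674), 2122 in CHT (1690 to 3372) and 7048 in IR/CHT (6131 to 12362), and in MV 455 (257.2 to 739), 1623 (897 to 2685) and 3508 (1553 to 4537). No library overlapped Ctrl in CHT or IR/CHT of these 3 tissues, and 13, 9 and 12 of the 15 markers were called higher in CHT of Ao, AoV and MV.

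Of 10 marker lists, those of other cell types also stood apart from Ctrl in some of the same groups. In Ao the smooth muscle sum was 78998 to 110661 CPM in Ctrl (median 99492), 51556 to 104400 in Lard (median 71971), 30718 to 78893 in CHT and 11041 to 59427 in IR/CHT, so that CHT and IR/CHT lay below Ctrl and Lard overlapped it. The endothelial sum in Ao was 90.0 to 195.2 CPM in Ctrl, 211.05 to 506 in Lard, 161.2 to 960 in CHT and 211.1 to 1066 in IR/CHT, with Lard and IR/CHT above every Ctrl library. In Ao CHT the heart muscle sum (171.99 to 506 CPM) lay below Ctrl (526 to 753).

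Neutrophil markers (10 of 11 listed) summed to 0.564 to 2.72 CPM in Ao Ctrl, and to 2.84 to 18.1 in CHT and 3.06 to 70.03 in IR/CHT. They also lay above Ctrl in MV CHT (3.39 to 5.45 against 1.17 to 1.82 CPM) and in PV CHT (1.77 to 4.91 against 0.669 to 1.52 CPM). T cell markers (2 of 6 listed) lay above Ctrl in IR/CHT of Ao (2.58 to 9.82 against 0.0621 to 1.80 CPM), AoV (3.76 to 20.4 against 0 to 0.900) and MV (1.41 to 14.8 against 0.201 to 0.588). The smooth muscle sum in MV CHT was 469 to 1324 CPM against 159.5 to 423 in Ctrl, and the adipocyte sum (4 of 6 listed) in AoV IR/CHT was 114 to 1017 CPM against 6.70 to 82.5. In AoV the heart muscle sum had a median of 817 CPM in Ctrl (180 to 12619), 62.9 in CHT (15.2 to 361) and 62.0 in IR/CHT (27.5 to 236.98). Sums of the B cell, red blood cell and valve interstitial cell lists overlapped Ctrl in all 15 groups. The part of any of these cell types, macrophages included, in the levels of the 7 genes was not tested.

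In PV the macrophage sum was 590 to 754 CPM in Ctrl (median 724) and 550.5 to 848 in CHT (median 761), and in TV it was 584 to 816 (median 652) and 580 to 904 (median 721). None of the macrophage markers was called in CHT of PV or TV, and 4 and 2 were called in IR/CHT, with median sums of 895 and 921 CPM. Heart muscle markers (8 of 12 listed) summed to 15.4 to 54.4 CPM in PV CHT against 39.2 to 5701 in PV Ctrl, and to 2956 to 34709 in TV CHT against 594 to 41733 in TV Ctrl. Endothelial markers (7 of 7) summed to 1102 to 1508 CPM in PV CHT and 1202 to 1753 in PV Ctrl. In PV IR/CHT 1 library had a smooth muscle sum of 19815 CPM and another an endothelial sum of 85.7 CPM, and the part of either in the PV IR/CHT values was not tested.

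**Figure D5:**
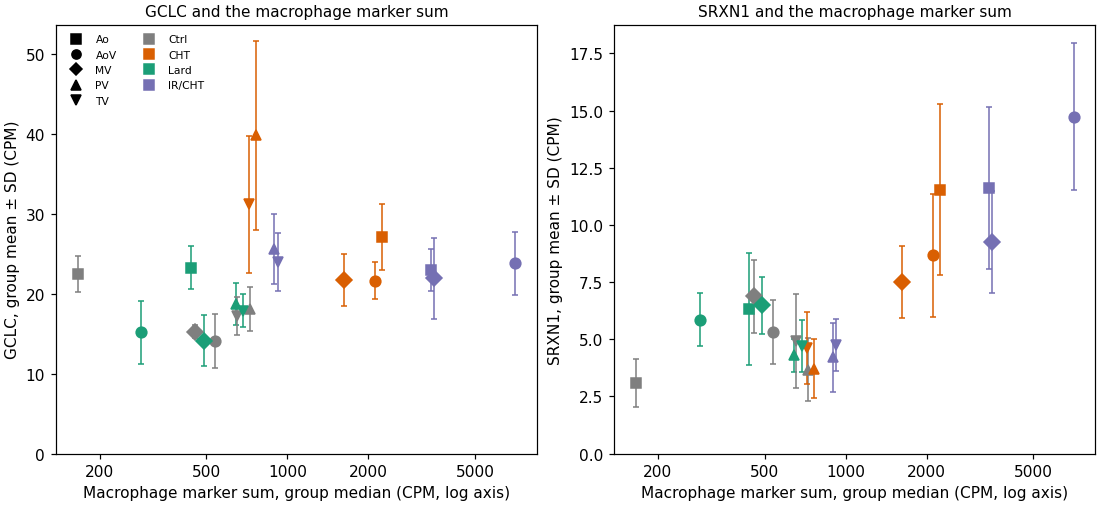
Group mean and SD of GCLC and SRXN1 in CPM against the group median of the summed macrophage markers in CPM on a log axis, with shapes for tissues and colors for treatments. PV CHT and TV CHT have the highest GCLC means (39.8 and 31.2 CPM) at marker sums of 761 and 721 CPM, while the highest SRXN1 mean, in AoV IR/CHT, is at 7048 CPM.

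Of 127 other genes of glutathione and NRF2 biology in 7 lists, 79 were found by symbol. These lists were drawn up with earlier results of the series known. In Ao, 17 of 73 tested were called higher and 2 lower in CHT, 2 and 0 in Lard, and 23 and 6 in IR/CHT, where 19.4%, 2.61% and 34.3% of all genes were called in either direction. In AoV, 12 of 72 were higher and 5 lower in CHT, 29 and 14 in IR/CHT, and 21 and 6 in IR/CHT over CHT, where the shares of all genes were 11.9%, 42.8% and 19.7%. In MV, 5 of 73 were higher and 0 lower in CHT, and 13 and 6 in IR/CHT, beside 5.62% and 17.7% of all genes. In PV, 0 of 72 were called in CHT and 2 in IR/CHT (HMOX1 and PHGDH), beside 0.159% and 0.706% of all genes. In TV 0 of 71 were called in either, beside 0.163% and 0.231%.

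The median log2 fold change of the pathway genes in IR/CHT was 0.29 in Ao, 0.41 in AoV and 0.24 in MV, where the medians of all genes were 0.00, -0.06 and -0.01. In CHT it was 0.10 in Ao, 0.16 in AoV, 0.10 in MV, -0.03 in PV and -0.07 in TV, against -0.04, -0.02, -0.02, 0.00 and -0.05 over all genes.

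Among the NRF2 regulators, 9 of 12 were found. NFE2L2, the gene of NRF2 itself, was called in 0 of 20 comparisons, with log2 fold changes over Ctrl from -0.23 (SE 0.08, Ao IR/CHT) to 0.26 (SE 0.16, AoV Lard). KEAP1, its inhibitor, was called once, higher in AoV IR/CHT than in CHT (0.65, SE 0.21, adjusted p = 0.0275). BACH1, a repressor of NRF2 target genes, rose in CHT and IR/CHT by 0.75 (SE 0.12, adjusted p = 2.41e-05) and 0.74 (SE 0.11) in Ao and by 0.996 (SE 0.21, adjusted p = 0.00177) and 1.499 (SE 0.21) in AoV. SQSTM1, an autophagy receptor that binds KEAP1, rose in AoV IR/CHT (0.90, SE 0.14), and BTRC, part of a ubiquitin ligase for NRF2, fell in Ao IR/CHT (-0.73, SE 0.14) and MV IR/CHT (-0.64, SE 0.15).

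Of the genes for precursor supply and glutathione turnover, 14 of 18 were found, and 4 of 13 tested rose in Ao CHT and 7 of 13 in Ao IR/CHT with none lower, where 19.4% and 34.3% of all genes were called. SLC7A11, the cystine transporter that feeds GCLC, stayed low throughout. Its mean in Ao was 0.0999 CPM in Ctrl, 0.7095 in CHT and 0.556 in IR/CHT, both called (adjusted p = 0.00156 and 0.00171), and it was called in none of AoV, MV and PV (it was too low to be tested in TV). Its partner SLC3A2 rose in AoV IR/CHT by 1.58 (SE 0.18, adjusted p = 8.99e-08). The efflux pump ABCC4 rose by 2.11 (SE 0.29) and 2.28 (SE 0.28) in Ao and by 1.16 (SE 0.18) and 1.45 (SE 0.18) in AoV, in CHT and IR/CHT. GGT7 and GGT5, of the gamma-glutamyltransferase family that breaks down glutathione, fell in AoV IR/CHT by -2.86 (SE 0.41) and -1.29 (SE 0.34). In MV, CTH, which makes cysteine, rose in CHT (1.57, SE 0.42), and DPEP2 and SLC25A39, the latter a mitochondrial glutathione carrier, rose in IR/CHT (1.29, SE 0.28 and 0.97, SE 0.35).

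Of the glutathione peroxidases, transferases and glutaredoxins, 16 of 37 were found by symbol and 11 or 12 were tested per tissue. MGST1, a membrane-bound transferase, rose in Ao by 1.67 (SE 0.49, adjusted p = 0.0117) in CHT and 2.43 (SE 0.49) in IR/CHT, and in AoV by 1.25 (SE 0.37, adjusted p = 0.0256) and 2.91 (SE 0.38). GSTO1 rose in AoV by 0.77 (SE 0.23) and 1.27 (SE 0.23). The cytosolic transferase GSTM2 fell in AoV, by -0.78 (SE 0.18) in CHT and -1.76 (SE 0.17) in IR/CHT, and in MV IR/CHT (-1.03, SE 0.19), and GSTA4 fell in IR/CHT of Ao (-0.76, SE 0.21) and AoV (-0.78, SE 0.19). GSTZ1 fell in AoV CHT (-0.59, SE 0.17), and GLRX5, a mitochondrial glutaredoxin, rose in Ao IR/CHT (0.94, SE 0.31). Reads of GSTM2 and GSTA4 may be shared with close family copies, and their values are uncertain to that extent.

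Of the thioredoxins, peroxiredoxins and sestrins, 11 of 18 were found. TXN, the substrate of TXNRD1, rose in AoV from 8.67 CPM in Ctrl to 17.4 in CHT (1.002, SE 0.31, adjusted p = 0.0299) and 44.6 in IR/CHT (2.42, SE 0.31, adjusted p = 3.79e-07), and in IR/CHT of Ao and MV (0.69, SE 0.15 and 0.83, SE 0.16). TXNIP, which binds and inhibits thioredoxin, fell in Ao from 303 CPM to 180 in CHT (-0.73, SE 0.17, adjusted p = 0.0016) and 171.5 in IR/CHT, and in PV CHT it was 196.5 against 379 CPM without a call (-0.95, SE 0.24, adjusted p = 0.126). SESN2, a stress-induced sestrin, rose in IR/CHT by 3.47 (SE 0.51) in Ao, 2.34 (SE 0.32) in AoV and 1.77 (SE 0.39) in MV. SESN3 rose in Ao (0.84, SE 0.17 in CHT) and fell in AoV IR/CHT (-0.68, SE 0.26), PRDX6 fell in Ao IR/CHT (-0.69, SE 0.10) and TXNRD3 fell in AoV IR/CHT (-1.86, SE 0.49).

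Of 5 genes for removal of superoxide and peroxide, 3 were found. CAT, which breaks down hydrogen peroxide, rose in Ao by 0.64 (SE 0.14, adjusted p = 0.00101) in CHT and 1.13 (SE 0.14) in IR/CHT, in AoV by 0.93 (SE 0.18, adjusted p = 0.000633) and 2.28 (SE 0.18), and in MV IR/CHT by 0.98 (SE 0.14). SOD1, the cytosolic superoxide dismutase, fell in Ao IR/CHT (-0.73, SE 0.11).

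NADPH drives GSR, TXNRD1 and NQO1, and 9 of 12 genes for its supply were found. In AoV IR/CHT, where 42.8% of all genes were called, 7 of 9 rose and 2 fell, with IDH2 at 1.65 (SE 0.20) and, among those lower, ME1 at -0.98 (SE 0.33) and ALDH1L1 at -1.56 (SE 0.54). PGD rose in Ao by 0.84 (SE 0.16) and 1.0003 (SE 0.16) in CHT and IR/CHT, while ME1 fell in Ao IR/CHT (-0.62, SE 0.16). In AoV CHT IDH1 and IDH2 rose by 0.72 (SE 0.24) and 0.69 (SE 0.20), and in MV IDH2 rose in CHT (0.74, SE 0.18) and IR/CHT (1.03, SE 0.17).

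Of 25 other NRF2 targets, 17 were found, and HMOX1, heme oxygenase, was called in 8 of 20 comparisons. HMOX1 rose in Ao from 3.18 CPM in Ctrl to 24.5 in CHT (2.97, SE 0.41, adjusted p = 3.89e-06) and 57.0 in IR/CHT (4.23, SE 0.42). It rose in AoV from 8.40 CPM to 25.7 (1.61, SE 0.26) and 97.7 (3.598, SE 0.28), and in MV from 9.15 CPM to 23.4 (1.37, SE 0.31) and 44.5 (2.30, SE 0.31). In PV it was 8.85 CPM in CHT against 4.77 (0.89, SE 0.36, adjusted p = 0.418) and rose to 13.7 CPM in IR/CHT (1.53, SE 0.35, adjusted p = 0.0328). That PV call was lost in 9 of 22 alternative settings (log2 fold changes of 0.83 to 1.82), among them only the 2 groups compared and either plate alone. HMOX1 is highly expressed in macrophages, whose markers are given above for the same groups, and their part in the HMOX1 level was not tested.

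The efflux pump ABCC3 rose by 4.25 (SE 0.49) and 5.01 (SE 0.50) in Ao, 1.44 (SE 0.30) and 3.04 (SE 0.31) in AoV, and 2.02 (SE 0.35) and 2.90 (SE 0.36) in MV, in CHT and IR/CHT. Members of this list also fell, with CBR3 at -0.89 (SE 0.34) in Ao CHT, ABCC2 at -0.89 (SE 0.27) in AoV CHT, EPHX1 at -0.73 (SE 0.17) in AoV CHT and -0.63 (SE 0.13) in MV IR/CHT, OSGIN1 at -1.66 (SE 0.64) in AoV IR/CHT and TIPARP at -0.73 (SE 0.16) in MV IR/CHT. PHGDH, of serine synthesis, fell in AoV IR/CHT (-1.21, SE 0.30) and rose in PV IR/CHT (0.71, SE 0.17, adjusted p = 0.0364), a call lost in 13 of 22 alternative settings.

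Of 164 called values of the other pathway genes, 95 kept the call in every alternative setting that gave one. Of those named above, besides the PV values, the calls lost most often were IDH1 in AoV CHT (14 of 20 settings), CBR3 in Ao CHT (13 of 17), SESN3 in AoV IR/CHT (13 of 22) and SLC25A39 in MV IR/CHT (13 of 21). The calls of GSTZ1 (12 of 20), GSTO1 (10 of 20), TXN (10 of 20) and ABCC2 (7 of 20) in AoV CHT, OSGIN1 in AoV IR/CHT (10 of 22) and KEAP1 in AoV IR/CHT over CHT (8 of 20) were also lost in a part of the settings. The 6 called in AoV CHT or in AoV IR/CHT over CHT were lost with plate 1 libraries alone, and all of them were also lost with plate as a covariate.

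The pattern of GCLC over the 20 groups was compared with that of 9678 genes with a symbol that were tested in all 5 tissues. By Pearson's r of mean log2 CPM over the 20 group means, the genes most like GCLC were ERI2 (0.87), PPP1R2 (0.81), RAB27A (0.80), SIL1 (0.80) and TIFA (0.79), and 6.61% of the genes had an r over 0.5. Over deviations from the group means in all libraries, their r with GCLC was 0.08, 0.48, 0.41, 0.28 and 0.21. Over the 16 valve groups alone ERI2 and TIFA remained among the 5 most alike. Of the other 6 genes GCLM ranked 90 (r = 0.67) and TXNRD1 came further down (r = 0.60), while NQO1, GSR, GSS and SRXN1 ranked from 2752 to 4926. Among the 7 genes the highest r over the group means was that of GSS and SRXN1 (0.81) and the lowest that of GSR and GSS (-0.76), and over deviations within groups GSR and TXNRD1 had the highest (0.72). Groups share rabbits and libraries share scaling factors, so these values describe the pattern only.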

How the data were processed

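Libraries were made from total RNA with a stranded low-input kit and sequenced on an Illumina NovaSeq. Per the labels, base calling used bcl2fastq 2.20 and the genome build was OryCun2.0. The study's methods name the nf-core RNA-seq pipeline with an Ensembl annotation and default settings except for trimming, so the strand setting of the counting was that pipeline's default, and reads of a gene and an antisense partner may not have been told apart. The authors deposited raw counts of reads per gene, in 2 tables of 67 libraries each, without normalization. All columns were matched to samples by name.

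From these counts, genes were filtered (filterByExpr), scaled by TMM and tested per tissue with edgeR 4.0.16 (R 4.3.3), using the robust quasi-likelihood fit over the 4 treatments. Standard errors are the absolute log2 fold change divided by the square root of F. Calls needed a Benjamini-Hochberg adjusted p under 0.05 and a fold change over 1.5. Differences in response between tissues were fitted with an interaction term, called at an adjusted p under 0.05, without rabbit as a block in the main design. The tissues compared came from the same rabbits by the column names of the count tables, and deviations from group means correlated within rabbits (median r 0.17 to 0.44 between AoV and the other tissues, near 0 between different rabbits). Log2 CPM for correlations used a prior count of 2. The script was tested on simulated data.

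The 7 genes, the pathway lists and the marker lists were chosen with earlier results of these data known. Besides the 7, the text names NFE2L2, KEAP1, HMOX1, SLC7A11, TXN and TXNIP (of the others listed, GPX1 was not matched by symbol and another is not reported here) and, per list, up to 2 higher and 2 lower called genes of largest fold change in CHT and IR/CHT of Ao, AoV and MV, and the 5 genes most like GCLC. Within a tissue each library came from a different rabbit, so p-values measure the spread between rabbits. Alternatives were DESeq2 1.42.0, its size factors in edgeR, no low-count filter, plate as a covariate, each plate alone, only the 2 groups compared, leaving out each library and, chosen after seeing the data, leaving out the libraries nearest another tissue and, for the differences between tissues, rabbit as a block.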

Additional observations from a re-analysis of the deposited data

Results flagged for a closer look

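In 6 of 140 groups of libraries (7 genes in 20 groups), 1 library stood apart from the rest of its group by Dixon's test, where chance at 1 in 20 would give 7. GCLC was 24.06 CPM in 1 PV Lard library (next highest 18.97) and 28.92 CPM in 1 Ao Lard library (next 23.99). GSR was 41.78 CPM in 1 PV IR/CHT library (next 34.55). TXNRD1 was 32.43 CPM in the TV Ctrl library that was nearest to AoV over other genes, against 77.44 CPM or more in the other 6. NQO1 was 22.52 CPM in 1 MV Ctrl library (next 11.99), without which NQO1 was called in MV IR/CHT, and SRXN1 was 6.291 CPM in 1 PV CHT library (next 3.746).

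Of 42 differences in response between tissues, 6 were called by the interaction term of edgeR. AoV minus Ao, they were -1.275 (log2) for SRXN1 in CHT, 0.592 for GCLC in IR/CHT and 0.7853 for TXNRD1 in IR/CHT. PV minus AoV, in IR/CHT, they were -1.0005 for GSS, -1.2267 for TXNRD1 and -1.2782 for SRXN1. All 6 were also called with rabbit as a block, and the SRXN1 call in AoV minus Ao was lost without the filter on low counts. Since the 7 genes were selected on such differences, these values are a description of the selection. All Ao libraries were on plate 2, as were 4 AoV Ctrl and 3 AoV IR/CHT libraries, while all 6 AoV CHT libraries were on plate 1. Plate and tissue therefore cannot be told apart in the AoV minus Ao difference in CHT. For IR/CHT the AoV minus Ao difference was not fitted within plate 2.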

How the results depend on the processing

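Of 407 alternative values of the GCLC log2 fold change, 378 kept direction and call, 9 lost the call, 4 gained it and 16 changed sign. The sign changes were all uncalled: with plate 2 alone -0.18 (AoV Lard, 0.45 with plate 1 alone), -0.10 (PV Lard) and -0.0198 (TV Lard), in MV IR/CHT versus CHT -0.0116 (plate covariate), -0.093 (plate 1 alone) and -0.0253 (libraries nearest another tissue left out), and with 1 library left out -0.0044 to 0.0891 (Ao Lard), -0.0626 to 0.105 (MV IR/CHT versus CHT), -0.0332 to 0.0835 (PV Lard) and -0.0179 to 0.103 (TV Lard).

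Of the counts of the 7 genes called, Ao Lard (1) was 0 with only the 2 groups compared. AoV CHT (3) was 1 with DESeq2 size factors, no filter, the plate covariate or only the 2 groups compared, and 0 with plate 1 alone. AoV IR/CHT versus CHT (2) was 1 with plate 1 alone, PV CHT (1) was 0 with plate 2 alone, PV IR/CHT versus CHT (0) was 1 with DESeq2, and TV CHT (1) was 0 with only the 2 groups compared and on either plate alone. The count of CHT responses that differed between AoV and Ao (1, SRXN1) was 0 without the filter. With 1 library left out the counts were 1 to 2 (Ao CHT, 1 without Ctrl L551 or L569 or CHT L572 or L574), 0 to 1 (Ao Lard, lost without any of 7 libraries), 0 to 3 (AoV CHT, 1 without Ctrl L166 or L261 or CHT L169 or L265, 2 without CHT L186 or L228), and 0 to 1 in MV CHT (1 without CHT L245), MV IR/CHT (1 without IR/CHT L179, GCLC, or Ctrl L278, NQO1) and PV IR/CHT versus CHT (1 without CHT L246).

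Of the other pathway genes called, Ao Lard (2) was 0 without the filter and with only the 2 groups compared, and Ao IR/CHT versus CHT (1) was 6 with DESeq2. AoV CHT (17) was 9 with the plate covariate or only the 2 groups compared and 6 with plate 1 alone, and AoV IR/CHT (43) was 28 with plate 2 alone. MV CHT (5) was 3 with plate 1 alone and 2 without the libraries nearest another tissue, and MV IR/CHT (19) was 9 with plate 2 alone. PV CHT (0) was 2 with DESeq2. PV IR/CHT (2) was 1 without the filter and 0 with only the 2 groups compared or either plate alone, and PV IR/CHT versus CHT (0) was 6 with DESeq2. TV IR/CHT (0) was 1 with DESeq2, 3 with plate 1 alone and 9 without the libraries nearest another tissue. With 1 library left out these counts ran from 0 to 3 (Ao Lard, PV IR/CHT, MV IR/CHT versus CHT), 0 to 4 (Ao IR/CHT versus CHT), 10 to 19 (AoV CHT), 0 to 1 (PV IR/CHT versus CHT) and 0 to 9 (TV IR/CHT). Settings with fewer libraries have less power, and otherwise the cause was not tested.

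With rabbit as a replicate block, chosen after seeing the data, the count of IR/CHT responses that differed between TV and MV (0) was 1 (TXNRD1), and the other 5 counts of differences between tissues were as without the block (1 and 2 in AoV minus Ao, 0 and 3 in PV minus AoV, 0 for CHT in TV minus MV). Treatments within a tissue could not be paired, since each was given to different rabbits.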

Other observations

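In AoV the 3 Ctrl libraries with TXNRD1 levels of 23.5 to 25.7 CPM stood apart from the other 4 at 61.6 to 75.6 CPM, and GSR in AoV Ctrl also ranged widely, from 13.7 to 38.9 CPM. The same 3 libraries (L150, L166 and L261) were the lowest of AoV Ctrl for GSR (13.7 to 16.5 CPM) and GCLC (8.17 to 12.8 CPM). They were the highest for GSS (31.6 to 40.4 CPM). All AoV comparisons with Ctrl rest in part on these libraries, and no alternative setting left out all 3 at once. Within groups the deviations of GSR and TXNRD1 had an r of 0.72, the highest among the 21 pairs of the 7 genes.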
